A study of Mus musculus with 122 samples.

Results

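The 10 genes described here lie side by side on mouse chromosome 7, in the order Prkcb, Cacng3, Rbbp6, Tnrc6a, Slc5a11, Arhgap17, Lcmt1, Aqp8, Zkscan2 and Hs3st4. They are 10 of the 52459 genes in the expression table, and together they span chr7:122288751-124398989 (GRCm38). The locus was picked for Prkcb and Zkscan2 in untreated and Dox-treated cells of the line that carries transgenic CTCFL, and the other 8 genes were taken for their position alone. The study showed it as an example of altered loops and expression where CTCF and CTCFL binding overlaps. Hi-C of those cells and the sites shared by CTCF and CTCFL thus also belong to the choice. The libraries of that choice are therefore described below with no test.

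All cells are mouse embryonic stem cells derived from E14Tg2a, an XY line of the 129/Ola strain. In each line CTCF itself carries an auxin-inducible degron with eGFP on both alleles, the plant receptor Tir1 is expressed, and a transgene with a FLAG tag and mRuby2 sits at the Tigre locus. IAA (500 μM, an auxin) removes endogenous CTCF, and doxycycline (Dox, 1 μg/ml) induces the transgene. The transgene is CTCF, CTCFL (also called BORIS), LCL (the N and C termini of CTCFL around the zinc fingers of CTCF) or CLC (the termini of CTCF around the zinc fingers of CTCFL). Further FLAG data come from CLL (only the N terminus is that of CTCF, the rest that of CTCFL) and LLC (only the C terminus is that of CTCF). Others come from CTCF and CTCFL cells that were treated with RNase or mock-treated before ChIP. Cells were untreated (U) or received IAA (I), Dox (D) or IAA with Dox (ID), so every group, U included, carries the degron alleles and an uninduced or induced transgene. For treated cells of these 4 lines the sample labels give 24 h, and for the CLL, LLC, RNase and mock FLAG samples 48 h, whereas the treatment protocol states 2 days, and for Hi-C cultures 4 days. Of the 38 RNA libraries, the CTCFL line has 3 for each of U, I and D and 2 for ID, the CTCF line has 2 for U and 3 for each of I, D and ID, and LCL and CLC have 2 for every condition. Nothing in the labels says that replicates are separate cultures, so p-values here measure the spread between these libraries, which may be technical.

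CTCF is a zinc finger protein that stops cohesin as it extrudes loops of chromatin, and its bound sites often mark the boundaries between topologically associating domains. CTCFL, its germ cell paralog, has similar zinc fingers but unrelated termini, and it binds a portion of the CTCF sites as well as promoters of its own. RAD21 is a subunit of cohesin, and its ChIP-seq peaks mark where cohesin is held. Genes within 1 domain can share regulatory elements, which is why neighbouring genes are often examined together with the sites and boundaries between them.

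Library depth ran from 6847072 to 49716771 reads over the 36 libraries whose reads could be recovered, and replicate 3 of CTCFL D was the shallowest. No pair of replicates agreed within sampling noise: their mean squared difference was between 1.38 and 57.5 times that of Poisson counting. Markers of embryonic stem cells (Pou5f1, Nanog, Sox2 and 5 others) summed to between 86575 and 280354 normalized counts, and none of the 8 was at 0 in every library. Ctcfl RNA in the CTCFL line was 207.8 in U and 8244 ± 1000 (SD, n = 3) in D. Ctcf RNA in the libraries labelled CTCF D was 3748, below the 4701 of CTCF U, so the transgene of that line was not seen as a rise of its own gene, and its libraries are used here by their labels.

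Per kb of exon, the mean normalized count over all libraries was highest for Rbbp6, at 475 per kb, followed by Lcmt1 at 341, Tnrc6a at 230 and Arhgap17 at 156. Aqp8 (80.6 per kb), Slc5a11 (56.8) and Zkscan2 (28.8) were intermediate, and Prkcb was low at 9.49 per kb. Hs3st4 (1.36 per kb) and Cacng3 (0.468 per kb) were listed at 0 in 14 and 18 of the 38 libraries. Their means stayed under 10 normalized counts in every line, and they entered no test. The order of neighbours was not fixed across libraries. Aqp8, for example, ran from 4.56 to 475 normalized counts over all libraries and Slc5a11 only from 86.4 to 282. Levels are not compared between lines by a test below, except where the response to Dox is compared.

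**Figure D1:**
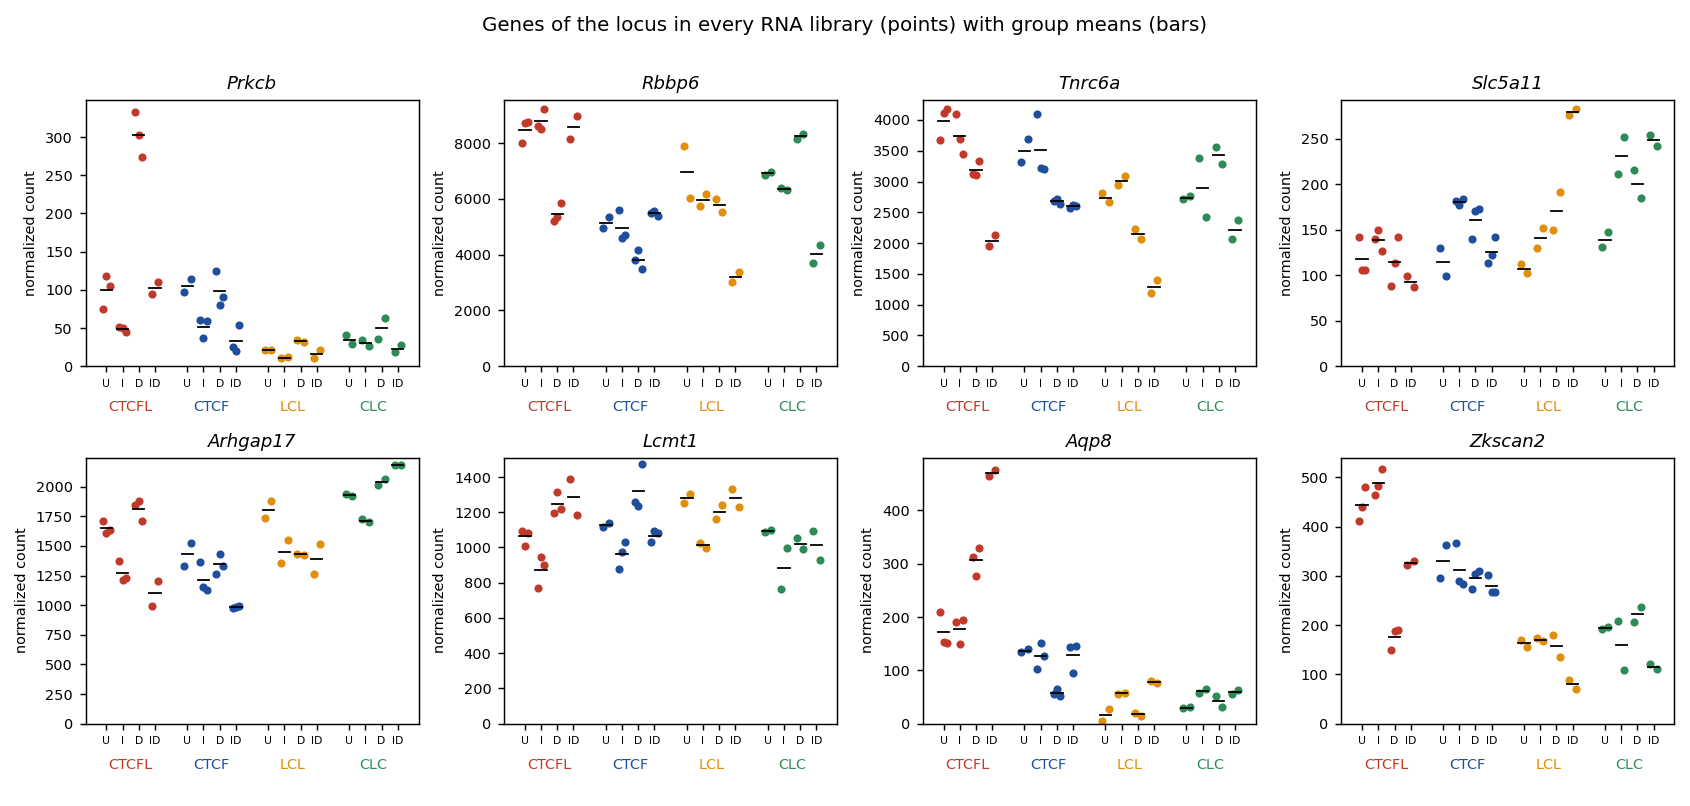
Normalized count (y axis, linear) of the 8 tested genes in each of the 38 RNA libraries, with points for libraries, bars for group means, and groups by line and condition (U, I, D, ID) on the x axis. Prkcb is at 273 normalized counts or more in the 3 libraries of CTCFL D and at 124.2 or less in every other library, and Zkscan2 is at its lowest within the CTCFL line in the same 3 libraries.

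Prkcb encodes a conventional protein kinase C, a calcium- and lipid-activated kinase known for signalling in neurons and B cells. In the CTCFL line, its normalized count was 75.4, 117.6 and 104.5 in U and 332.5, 303.2 and 273.4 in D. It was 51.3, 49.9 and 45.2 in I and 95.0 and 110.6 in ID. D lay above all other groups without overlap, I lay below them, and ID overlapped U. On the log2(value + 1) scale the difference from U was 1.62 in D (a ratio of 3.06), −0.99 in I and 0.07 in ID.

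Zkscan2, at the other end of the gene cluster, encodes a zinc finger protein with SCAN and KRAB domains, a class that binds DNA. Its normalized count in the CTCFL line was 411, 439 and 481 in U and 149, 189 and 191 in D. It was 464, 483 and 518 in I and 322 and 330 in ID. D was the lowest group, ID lay between D and U, and U overlapped I. The log2 difference from U was −1.33 in D (a ratio of 0.397), 0.14 in I and −0.44 in ID. Since Prkcb and Zkscan2 were chosen from U and D of this line, these values have no test.

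The genes between them did not share 1 direction in D of the CTCFL line. Aqp8, a water channel of the plasma membrane, was 210, 153 and 151 in U and 313, 276 and 330 in D, a log2 difference of 0.85 with no overlap. Rbbp6, a ubiquitin ligase that binds RB and p53, was lower by −0.63 on the log2 scale and also did not overlap. Tnrc6a, a GW182 scaffold protein of microRNA silencing, was lower by −0.32. Arhgap17, a GTPase-activating protein, and Lcmt1, the methyltransferase of protein phosphatase 2A, were 0.13 and 0.23 higher, again with no overlap between U and D. Slc5a11, a sodium-coupled inositol transporter, differed by −0.05 and overlapped. Hs3st4, a heparan sulfate sulfotransferase, was 2.69, 12.85 and 4.64 in U and 27.63, 5.32 and 14.98 in D, which overlapped. Cacng3, a TARP subunit of AMPA receptors, was at 9.43, 0 and 3.48 in U and at 0.99, 3.55 and 0 in D. The median difference of all genes from U was 0 in D, 0.04 in I and 0.08 in ID.

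Dox in cells under IAA gave a contrast of CTCFL induction from libraries that did not choose the locus. Between I and ID of the CTCFL line, 5 of the 8 tested genes passed a limma adjusted p of 0.05, 3 of them higher and 2 lower in ID. Of all 16840 genes tested, 18.5% were higher and 22.1% lower, so a count of 5 is read against a background in which calls were common. Under the thresholds of the study, an adjusted p under 0.01 with an absolute log2 fold change over 1, 2 genes passed (Prkcb and Aqp8) against 7.83% of all genes. The members' median log2 fold change was −0.12 and that of all genes −0.01.

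Prkcb rose from 51.3, 49.9 and 45.2 normalized counts in I to 95.0 and 110.6 in ID, which is 1.06 ± 0.26 (SE) on the log2 scale at a limma adjusted p of 0.00239. Aqp8 rose the most, from 190, 149 and 194 to 464 and 475, or 1.41 ± 0.19 at an adjusted p of 4.69e-06. Lcmt1 rose from a mean of 872.6 to 1285, by 0.56 ± 0.11 at an adjusted p of 0.000223. In each of these genes every ID library lay above every I library.

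The 2 genes that fell were Tnrc6a and Zkscan2. Tnrc6a was 4092, 3689 and 3444 in I and 1947 and 2136 in ID, a log2 fold change of −0.87 ± 0.09 with a limma adjusted p of 5.23e-08. Zkscan2 went from 464, 483 and 518 to 322 and 330, a log2 fold change of −0.58 ± 0.15 with an adjusted p of 0.00453. For Slc5a11 (−0.57, adjusted p 0.0886), Arhgap17 (−0.21, adjusted p 0.0806) and Rbbp6 (−0.04, adjusted p 0.748) the difference did not pass. The 5 calls passed under every alternative that was run. The cultures also differed in other ways between I and ID: the summed embryonic stem cell markers were 116159 to 116446 in I and 86575 to 92535 in ID, trophoblast markers 847 to 902 and 1214 to 1372, and fibroblast markers 1077 to 1312 and 1987 to 2160. Their part in these results was not tested, and in bulk RNA fewer cells of a type and less RNA per cell cannot be told apart.

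The same contrast was made in the line with transgenic CTCF. Between CTCF I and ID, 3 of 8 genes passed, all lower in ID, where 22.2% of 16705 genes were lower and 16.7% higher. They were Tnrc6a (−0.43 ± 0.09, limma adjusted p 0.00171), Slc5a11 (−0.52 ± 0.15, adjusted p 0.012) and Arhgap17 (−0.29 ± 0.09, adjusted p 0.0156). Prkcb was 61.0, 36.4 and 58.7 in I and 25.3, 19.9 and 54.5 in ID. These groups overlapped, and the log2 fold change of −0.73 ± 0.33 did not pass (adjusted p 0.0965), though it did under 2 of 14 alternatives. Zkscan2 was between 268 and 366 in every library of I and ID (−0.16 ± 0.12, adjusted p 0.343). The call of Slc5a11 was lost without replicate 1 of ID (adjusted p 0.052) and that of Arhgap17 without replicate 1 of I (adjusted p 0.0554).

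Whether Dox acted differently in the CTCFL and CTCF lines under IAA was tested as an interaction in 1 limma fit of all 16 groups. It uses the same libraries as the 2 contrasts just given. Of 16480 genes tested, 6.88% passed with a higher and 7.92% with a lower response in the CTCFL line, and of the 8 genes 3 were higher and 1 lower. Prkcb had the largest difference of the 8, at 1.78 ± 0.46 on the log2 scale with a limma adjusted p of 0.00718, and it passed under each of the 18 alternatives, between 1.49 and 2.2. Aqp8 (1.40 ± 0.48, adjusted p 0.0434) and Lcmt1 (0.40 ± 0.14, adjusted p 0.0476) were also higher in the CTCFL line, and Tnrc6a (−0.45 ± 0.14, adjusted p 0.0322) was lower. These 3 calls were near the threshold, and none of them passed without the filter on low values (adjusted p 0.0832 for Aqp8, 0.0818 for Lcmt1 and 0.0663 for Tnrc6a). Only 1 or 2 of the 4 genes passed without replicate 1 or 3 of CTCFL I, replicate 1 of CTCFL ID, replicate 2 or 3 of CTCF I, or replicate 2 or 3 of CTCF ID. Aqp8 was also lost without replicate 2 of CTCFL I (adjusted p 0.0962) or of CTCFL ID (0.115), and Lcmt1 without replicate 1 of CTCF ID (0.0983). With the replicate block 1 call was left, that of Prkcb. Zkscan2 fell in the CTCFL line but its difference between the lines, −0.42 ± 0.25, did not pass (adjusted p 0.274). Embryonic stem cell markers overlapped between CTCF I (124099 to 139933) and ID (128824 to 131679), as did trophoblast markers (1093 to 1159 and 1020 to 1151). Fibroblast (1222 to 1417 and 1515 to 1784) and neural markers (5315 to 5890 and 5955 to 6504) did not. Between CTCFL I and ID the embryonic stem cell, trophoblast and fibroblast markers shifted, as given above. Neural markers were 5246 to 5814 in CTCFL I and 4835 to 4976 in CTCFL ID, lower in ID where those of the CTCF line were higher. The part of these differences was not tested.

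**Figure D2:**
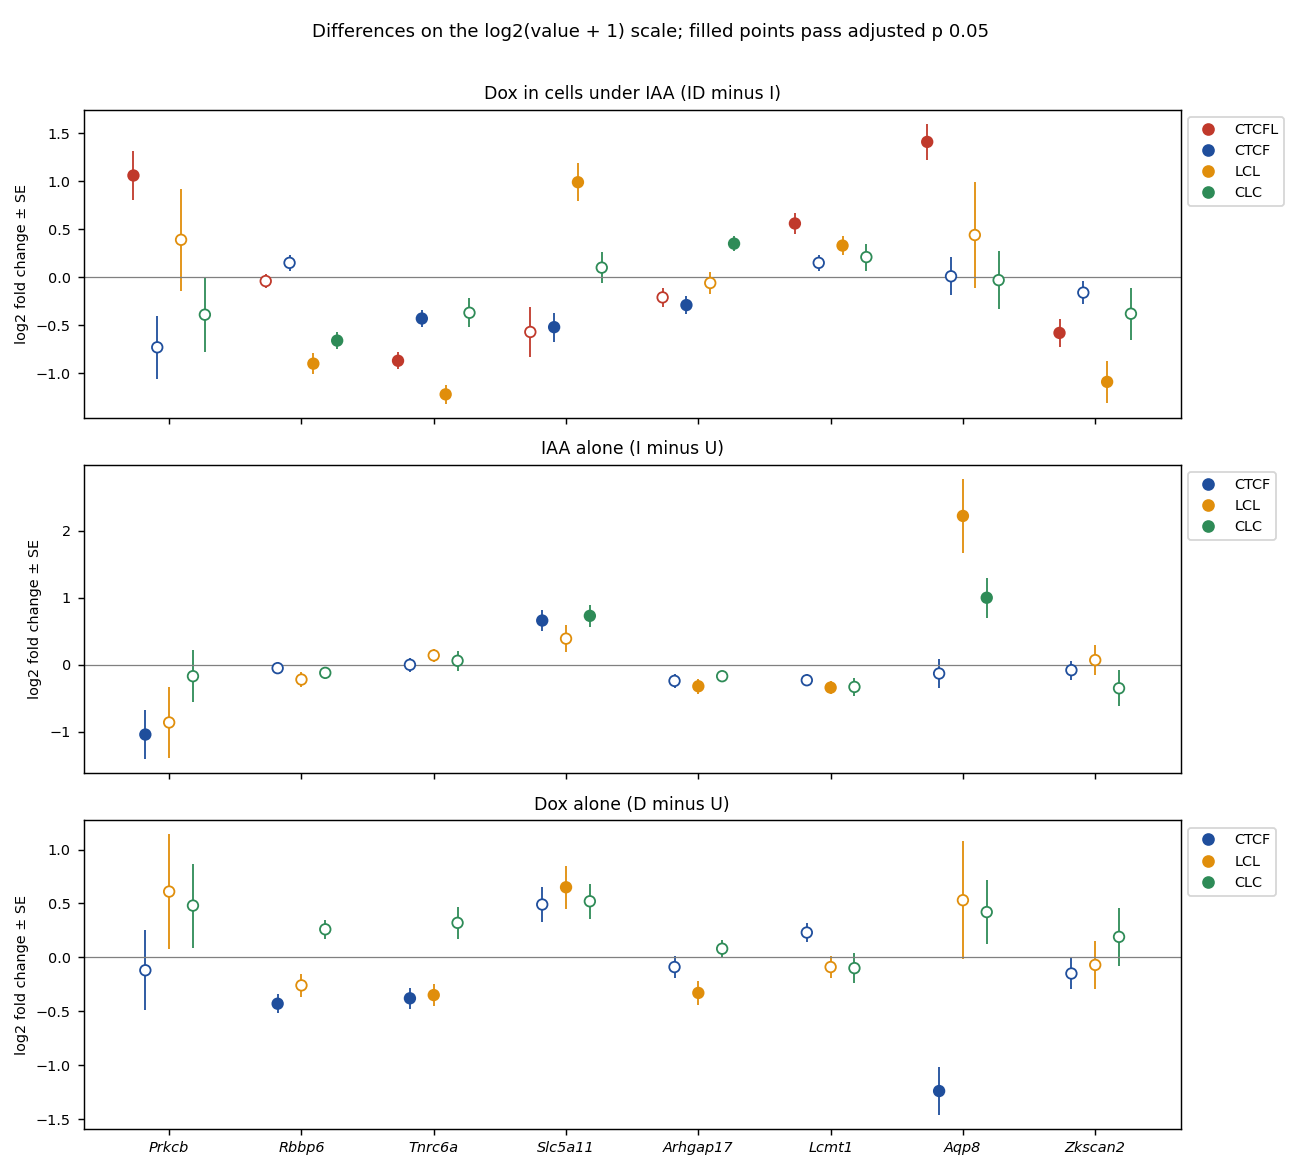
Log2 fold change ± SE (y axis) of the 8 tested genes (x axis) for ID minus I, I minus U and D minus U, by line, on the log2(value + 1) scale, with filled points where the limma adjusted p is under 0.05. In the top panel Prkcb is filled in the CTCFL line alone (1.06) and lies below 0 in CTCF (−0.73) and CLC (−0.39). The CTCFL line is left out of the lower panels, since its U and D libraries chose the locus.

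The chimeras were examined in the same way, and their differences from the other lines were not tested. Between LCL I and ID, 5 of 8 genes passed, 2 higher and 3 lower, where 22.5% of 15274 genes were higher and 22.9% lower. Tnrc6a fell from 2942 and 3082 to 1189 and 1395 (−1.22 ± 0.10, limma adjusted p 8.56e-09). Zkscan2 fell from 173 and 168 to 89.5 and 70.6 (−1.09 ± 0.22, adjusted p 0.000435), and Rbbp6 from 5725 and 6164 to 3019 and 3366 (−0.90 ± 0.11, adjusted p 1.4e-06). Tnrc6a and Zkscan2 had thus fallen with induction of CTCFL and of LCL under IAA, and Tnrc6a also with that of CTCF. Rbbp6 had not passed with CTCFL. Between LCL I and ID the summed embryonic stem cell markers were 191619 to 198060 in I and 204311 to 211917 in ID, trophoblast markers 340 to 412 and 671 to 778, neural markers 4933 to 5627 and 6409 to 6745, and fibroblast markers 390 to 444 and 233 to 244. Their part was not tested.

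The genes that rose with LCL were Slc5a11 and Lcmt1. Slc5a11 went from 130 and 152 to 276 and 282 (0.99 ± 0.20, limma adjusted p 0.000467), opposite in sign to its fall in the CTCF line. Lcmt1 rose by 0.33 ± 0.10 (adjusted p 0.0108), and its call was lost without replicate 2 of LCL I (adjusted p 0.0807) or replicate 1 of LCL ID (adjusted p 0.0583). Prkcb was at 10.5 and 12.1 in LCL I and 10.6 and 21.2 in LCL ID, which overlapped (0.39 ± 0.53, adjusted p 0.58), and the value was −0.08 without replicate 2 of LCL ID. The 1.06 seen with CTCFL lay within 2 SE of this value.

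Between CLC I and ID, 2 of 8 genes passed, 1 in each direction, where 10.2% of 15337 genes were higher and 6.77% lower. Rbbp6 fell from 6381 and 6318 to 3715 and 4330 (−0.66 ± 0.09, limma adjusted p 0.00289), and Arhgap17 rose from 1726 and 1700 to 2186 in both ID libraries (0.35 ± 0.08, adjusted p 0.0186). Prkcb was 33.99 and 26.6 in I and 18.8 and 27.3 in ID (−0.39 ± 0.39, adjusted p 0.533). Zkscan2 was 208 and 110 in I, a wider spread than in any other group of this line, and 121.9 and 110 in ID (−0.38 ± 0.27, adjusted p 0.37). Without replicate 2 of CLC I, 5 genes passed in place of 2. Arhgap17 lost its call without replicate 1 (adjusted p 0.0688) or replicate 2 (adjusted p 0.0851) of CLC ID, and with the 2 groups fitted alone neither gene passed (adjusted p 0.0526 for Rbbp6 and 0.159 for Arhgap17). Embryonic stem cell markers summed to between 201853 and 204144 in I and between 230069 and 235889 in ID, and fibroblast markers to between 673 and 713 and between 397 and 464, whose part was not tested.

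Removal of CTCF alone was tested in the 3 lines whose U libraries did not choose the locus. In the CTCF line 2 of 8 genes passed between U and I, 1 in each direction, where 22.3% of all genes were higher and 21.8% lower in I. Prkcb fell from 96.8 and 113.8 to 61.0, 36.4 and 58.7 (−1.04 ± 0.37, limma adjusted p 0.0345), and no library of I overlapped U. This call was lost without replicate 1 of U (adjusted p 0.0808), replicate 2 of U (adjusted p 0.166) or replicate 2 of I (adjusted p 0.119), and without the filter on low values (adjusted p 0.0584). Slc5a11 rose from 130 and 99.4 to 181, 177 and 184 (0.66 ± 0.16, adjusted p 0.00486), a call that was lost without replicate 2 of U (adjusted p 0.0794), when no member was called. Embryonic stem cell markers summed to between 175647 and 187198 in U and between 124099 and 139933 in I, and trophoblast markers to between 570 and 629 and between 1093 and 1159. The part of these shifts was not tested.

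In LCL, 3 of 8 genes passed between U and I, 1 higher and 2 lower, where 20.5% of all genes were higher and 19.8% lower in I. Aqp8 was at 4.56 and 27.2 in U and at 56.5 and 58.2 in I (2.22 ± 0.55, limma adjusted p 0.00271). The fold rests on the low value of replicate 1 of U, without which the adjusted p was 0.0855. Arhgap17 fell by 0.32 on the log2 scale (adjusted p 0.0244) and Lcmt1 by 0.34 (adjusted p 0.012). Both calls were lost without replicate 2 of U or replicate 1 of I (adjusted p between 0.0536 and 0.245), that of Lcmt1 also without replicate 2 of I (adjusted p 0.0878), and that of Arhgap17 without the filter on low values (adjusted p 0.051). Embryonic stem cell markers were lower in I (191619 to 198060) than in U (228008 to 232684), and their part was not tested. Prkcb was 21.7 and 21.0 in U and 10.5 and 12.1 in I without overlap, although −0.86 ± 0.53 did not pass (adjusted p 0.205).

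In CLC, 2 of 8 genes passed between U and I, both higher in I, where 20.9% of all genes were higher and 23.1% lower. Slc5a11 rose from 131 and 147 to 211 and 252 (0.73 ± 0.16, limma adjusted p 0.00684) and Aqp8 from 29.6 and 30.8 to 58.1 and 64.7 (1.00 ± 0.30, adjusted p 0.0245). Neither passed without replicate 1 of U (adjusted p 0.0655 and 0.114), and Aqp8 also did not without replicate 2 of U (0.0994) or replicate 2 of I (0.0825) or without the filter on low values (0.057). Embryonic stem cell markers summed to between 270800 and 272796 in U and between 201853 and 204144 in I, and fibroblast markers to between 308 and 330 and between 673 and 713, whose part was not tested. Prkcb was 40.5 and 28.5 in U and 33.99 and 26.6 in I, which overlapped (−0.17 ± 0.39, adjusted p 0.744).

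Dox with endogenous CTCF present was tested in the same 3 lines, against the same U libraries. In the CTCF line 3 of 8 genes passed between U and D, all lower in D, where 10.4% of all genes were lower and 6.94% higher. Aqp8 fell from 134 and 140 to 55.8, 64.8 and 52.1 (−1.24 ± 0.22, limma adjusted p 0.0041), opposite in sign to the higher values that Aqp8 had in CTCFL D. Rbbp6 fell by 0.43 (adjusted p 0.00988) and Tnrc6a by 0.38 (adjusted p 0.0196) on the log2 scale. Without replicate 2 of U none of the 3 passed (adjusted p 0.0527 for Aqp8, 0.119 for Rbbp6 and 0.202 for Tnrc6a), and Tnrc6a also did not without replicate 3 of D (0.0542) or with the replicate block (0.0565). Prkcb was 96.8 and 113.8 in U and 124.2, 80.7 and 90.2 in D, which overlapped (−0.12 ± 0.37, adjusted p 0.849), and Zkscan2 differed by −0.15 ± 0.14 (adjusted p 0.476). Fibroblast markers summed to between 1038 and 1079 in CTCF U and between 1462 and 1727 in CTCF D, and neural markers to between 4942 and 5400 and between 3823 and 3900, whose part was not tested.

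In LCL, 3 of 8 genes passed between U and D, 1 higher and 2 lower, where 11% of all genes were higher and 10.7% lower in D. Slc5a11 rose by 0.65 (limma adjusted p 0.0243), and Tnrc6a fell by 0.35 (adjusted p 0.0145) and Arhgap17 by 0.33 (adjusted p 0.0325) on the log2 scale. No member was called without replicate 1 of U or without replicate 2 of D. Without replicate 2 of U the adjusted p was 0.0899 for Slc5a11 and 0.139 for Arhgap17, and without replicate 1 of D it was 0.14 for Arhgap17. Without the filter on low values it was 0.0507 for Slc5a11 and 0.0706 for Arhgap17. Fibroblast markers summed to between 380 and 399 in LCL U and between 699 and 734 in LCL D, and neural markers to between 6234 and 6362 and between 3856 and 4076, whose part was not tested. Prkcb was 21.7 and 21.0 in U and 34.3 and 31.9 in D, with no overlap, but its log2 fold change of 0.61 ± 0.53 did not pass (adjusted p 0.449). In CLC no member passed in limma between U and D, where 4.82% of all genes were higher and 5.67% lower in D, nor in edgeR or DESeq2, and 2 members (Slc5a11 and Rbbp6) had an unadjusted p under 0.05. Prkcb was 35.9 and 63.3 in CLC D (0.48 ± 0.39, adjusted p 0.444).

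Arhgap17 and Lcmt1 lie head to head and their annotations overlap, at chr7:123369784-123369915. The library kit keeps strand, but the counting mode is not given in the sources used here, so reads of this overlap may have been assigned to either gene or to neither.

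Over the 16 groups, the mean log2 level of Prkcb correlated with that of Hs3st4 (Pearson r 0.81) and Aqp8 (0.61), and that of Zkscan2 with Tnrc6a (0.70). Prkcb and Zkscan2, which moved in opposite directions in CTCFL D, had an r of 0.54 over all groups. These correlations are descriptions over 16 groups that share lines and normalization, and Hs3st4 is at or near 0 in LCL and CLC. The groups include CTCFL U and D, which chose Prkcb and Zkscan2. Library names of LCL and CLC also carry a tag that those of CTCF and CTCFL lack. Ctcf RNA in U was 8569 in LCL and 8389 in CLC, against 5064 in CTCFL and 4701 in CTCF. The part of such differences between lines in these correlations was not tested. Among 12901 genes with a mean of at least 50, the pattern of Prkcb was most like that of Col13a1 (r 0.96), Peak1 (0.956), Trank1 (0.953), Ppp1r16b (0.951) and Ccdc15 (0.932). That of Zkscan2 was most like Hrc (0.938), Bag2 (0.917), Sema4g (0.915), 9230112E08Rik (0.912) and Gdap1l1 (0.906).

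The annotation holds 57 further genes within 1000 kb of the locus or between its members, and 11 to 17 of them passed the filter on low values in each line. Between CTCFL I and ID 2 were higher and 1 lower of 15 tested, where 18.5% of all genes were higher and 22.1% lower. Between LCL I and ID 1 was higher and 2 lower of 11, where 22.5% and 22.9% of all genes were. The 1 flanking gene past a log2 fold change of 1 was Ndufab1, the mitochondrial acyl carrier protein. It rose from 516.8 to 1151 in the CTCFL line (1.16 ± 0.13, limma adjusted p 3.62e-07) and from 420.8 to 1129 in LCL (1.42 ± 0.15, adjusted p 3.92e-07).

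The relatives of the members were counted by lists of gene families. Of 9 protein kinase C genes, all 9 were tested between CTCFL I and ID, and 2 were higher and 2 lower, where 18.5% of all genes were higher and 22.1% lower. Prkch rose with Prkcb (8.98 to 24.8 normalized counts, 1.47 ± 0.48, limma adjusted p 0.0169), whereas Prkca fell from 172.5 to 80.6 (−1.09 ± 0.23, adjusted p 0.000601). Prkch was the other family member called in the interaction (2.6 ± 0.69, adjusted p 0.00838). On removal of CTCF in the CTCF line, 2 of 8 were higher and 4 lower, where 22.3% of all genes were higher and 21.8% lower, and Prkce fell from 158.4 to 13.01 (−3.64 ± 0.38, adjusted p 5.71e-06). Prkce fell in the same contrast in LCL (−1.83 ± 0.42) and CLC (−3.15 ± 0.39). The median of the list was −0.05 between CTCFL I and ID, where that of all genes was −0.01, and −0.38 between CTCF U and I, where that of all genes was 0.03.

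Tnrc6a belongs with 6 other genes of GW182 and Argonaute proteins, the core of the microRNA silencing complex. Between LCL I and ID 6 of these 7 genes were lower and none was higher, where 22.9% of all genes were lower, with a list median of −0.69 against 0 for all genes, and Ago3 (−1.02 ± 0.19, limma adjusted p 0.000238) and Ago4 (−1.17 ± 0.47, adjusted p 0.0483) passed a log2 change of 1 beside Tnrc6a. Between CTCFL I and ID 4 of 7 were lower, with a median of −0.45, and between CTCF I and ID also 4 of 7, with a median of −0.35. In these contrasts 22.1% and 22.2% of all genes were lower. Of 11 Zkscan genes, 2 were higher and 3 lower between CTCFL I and ID (Zkscan4, 35.4 to 86.8, 1.28 ± 0.46, adjusted p 0.0296), and none was higher and 4 were lower between LCL I and ID. Of 8 Cacng genes, 6 were tested between CTCFL I and ID, and 1 was higher and 1 lower. The shares of all genes are again 18.5% and 22.1% for CTCFL and 22.5% and 22.9% for LCL.

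FLAG ChIP-seq, which targets the tag of the transgenic protein, placed 54 sites across the locus. They were counted as merged regions with a peak in both replicates of at least 1 of the 8 groups (CTCF, CTCFL, LCL and CLC, in D and ID). Sites are numbered here from 1, upstream of Prkcb, to 54, in Hs3st4, and 52 of them lie in the window from 88.8 kb before Prkcb to just past the start of Hs3st4. The window held 35 sites in CTCF D and 35 in CTCF ID. CTCFL had 17 in D and 17 in ID, LCL 18 in D and 34 in ID, and CLC 5 in D and 11 in ID. These counts move with how many peaks were listed per replicate, which was 9 and 10 in this window in CLC D and 41 and 61 in CTCF D. With 2 replicates a group no exact test can reach a p of 0.05, so peaks are compared by their values alone.

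Of the 54 sites, 16 had a peak in both replicates of CTCF and of CTCFL, in D or ID, 26 of CTCF without CTCFL, 7 of CTCFL without CTCF, and 5 of LCL or CLC alone. At 5 of the 26 and 3 of the 7 the other protein had a peak in a single replicate, and at 4 of the 5 CTCF or CTCFL did. These classes rest on the 8 groups alone. In the mock or RNase samples CTCF had a peak in both replicates at sites 6 and 19, classed as CTCFL, and at site 51. CTCFL had 1 in both mock replicates at site 40, classed as CTCF, and at site 15. Sites 15 and 51 are classed as LCL or CLC alone. Between CTCF ID, with endogenous CTCF removed, and CTCFL D, with endogenous CTCF present, 11 sites overlapped by at least 1 bp, which is 31.4% of the CTCF sites and 64.7% of the CTCFL sites of the window. Over the genome these shares were 46.7% and 63.4%.

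CTCF ID peaks were stronger than CTCFL D peaks at most of the 11 shared sites. At 9 of them the fold enrichment over background of both CTCF ID replicates lay above both of CTCFL D. The same held at 11277 of 14092 such sites over the genome. Site 44, in an intron of Aqp8, had folds of 12.48 and 13.6 for CTCF ID and 5.78 and 4.86 for CTCFL D. Site 9, in an intron of Prkcb, had 12.46 and 15.52 against 7.27 and 4.74. The reverse held at site 11 alone (662 sites over the genome), also within Prkcb, with 3.3 and 3.69 for CTCF ID and 3.92 and 4.24 for CTCFL D. These groups differ in endogenous CTCF as well as in the transgene. With D used for both lines, only sites 2, 9, 27 and 44 of the 11 had both CTCF folds above both CTCFL folds. At site 18 the folds were 9.02 and 6.53 in CTCF D and 8.32 and 7.97 in CTCFL D.

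**Figure D3:**
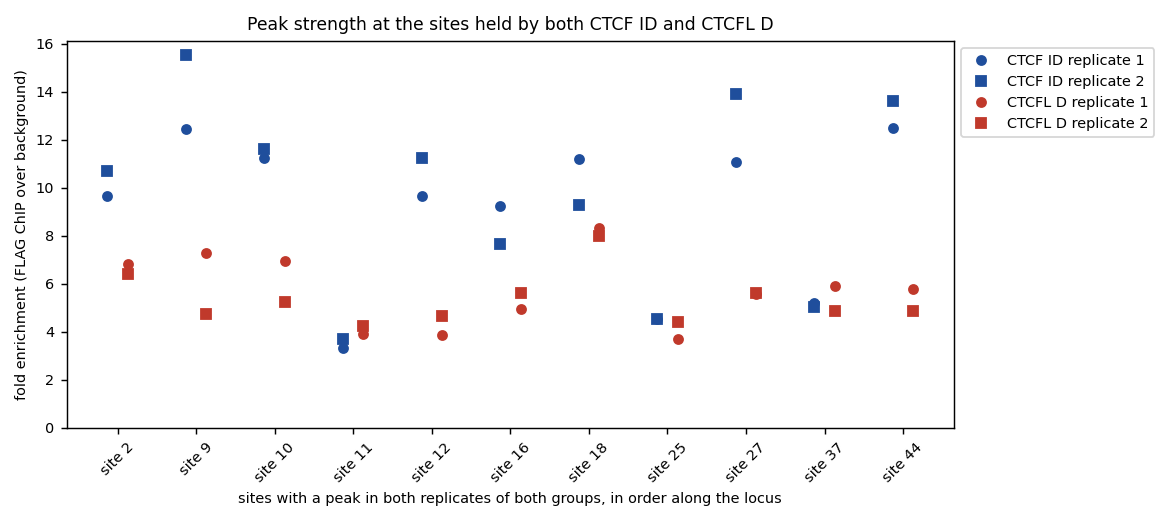
Fold enrichment of the FLAG peak over background (y axis, from 0) at the 11 sites with a peak in both replicates of CTCF ID (blue) and of CTCFL D (red), in order along the locus, with circles for replicate 1 and squares for replicate 2. The blue points lie above the red ones at 9 sites, below them at site 11, and are mixed with them at site 37.

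The DNA under these sites was read from GRCm38 within 50 bp of the summit of the strongest peak in any of the 8 groups and searched on both strands for the core of the CTCF motif, CCANNAGNNGGC, with at most 1 mismatch among its 8 fixed letters. A match was found at 24 of the 54 sites, 12 of them exact. Over the genome, 59.0% of CTCF ID sites and 32.6% of CTCFL D sites held such a match, against 8.91% and 9.09% of windows moved by 1000 bp. By class, 12 of the 16 sites of both proteins, 11 of the 26 CTCF sites and 1 of the 7 CTCFL sites had a match, and none of the 5 others. The following 30-base windows are shown because they carry the comparisons made here, on the strand of the match, with the fixed letters that match in capitals. Site 2 lies at −37.1 kb from the start of Prkcb, site 3 in an exon near the start of Prkcb, site 12 in a Prkcb intron, site 18 before Cacng3, site 27 before Rbbp6 and site 44 in Aqp8.
site 2 (chr7:122251644-122251673, plus strand): gggtggcttCCAccAGggGGCagagcggga
site 3 (chr7:122290266-122290295, minus strand): cgaccacgaCCAccAGgtGGCaggatgcga
site 12 (chr7:122470787-122470816, plus strand): cctcattggCCActAGggGGCaggcggcac
site 18 (chr7:122668079-122668108, minus strand): acattctcaCCActAGagGGCtctttcatc
site 27 (chr7:122945353-122945382, plus strand): caagaatgtCCActAGagGGCcccaacagc
site 44 (chr7:123465877-123465906, minus strand): aagcaagtgtCActAGgtGGCagcaaagca

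Several other windows resembled each other far beyond the motif. Of the 24, sites 4, 16, 22, 25, 29, 30, 33, 47 and 48 formed 1 group in which every window shared at least 20 of its 30 letters with another, a limit set after the windows were seen. Pairs within this group of 9 shared between 18 and 25 letters (median 21.5), and pairs among the other 15 windows between 8 and 19 (median 14). The group held 6 sites of CTCF without CTCFL and 3 of both proteins, and the other 15 held 5 and 9. At 1 of the 9 a RAD21 peak was listed in any replicate, and at 12 of the 15. The sets were not matched for peak strength. In the group, CTCF ID folds were 4.53 and 4.53 at site 25, and 9.63 and 11.13 at site 29, which had the RAD21 peak. Among the others they were 11.06 and 13.9 at site 27, and 4.25 and 5.15 at site 17, which had no RAD21 peak. The part of strength was not tested, and absence of a RAD21 peak says little in these lists. Windows 22, 25 and 48 are shown for their shared letters.
site 22 (chr7:122886930-122886959, plus strand): ccacagaagCCAgaAGggGGCatcagattc
site 25 (chr7:122921713-122921742, minus strand): ccagaagggCCAgaAGagGGCatcagattc
site 48 (chr7:123566437-123566466, minus strand): ccacagaggCCAgcAGagGGCatcatatcc

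The site nearest to the start of Prkcb was site 3, at chr7:122289438-122290738 988 bp past the nearest protein-coding start, whose exact motif is shown above. CTCFL had a peak there in both replicates of D (folds 4.93 and 3.64) and of ID (3.8 and 4.55). LCL also did, in D (3.64 and 4.67) and ID (5.21 and 4.72). CTCF had a peak in replicate 2 of D alone (5.43) and in neither replicate of ID, CLC had none in either condition, and no RAD21 peak was listed. With a −log10 q of at least 5 the site was held by LCL ID alone. It was the 1 site of the CTCFL class with a motif match, which was read under the CTCF peak, the strongest there. Of the 4 CTCFL peaks, 3 ended before the motif, at positions 122289827 to 122289987. The other 6 CTCFL sites were within Prkcb, Cacng3, Rbbp6 and Arhgap17 in 5 cases and intergenic in 1, and among them site 41 in Arhgap17 was held in D and ID, with folds between 3.43 and 5.16. Under the stricter q only sites 6 and 28 of the 7 kept a CTCFL peak in both replicates, whereas 23 of the 26 CTCF sites kept one of CTCF. Site 28 lay at −958 bp from a protein-coding start of Rbbp6. CTCFL had folds of 4.93 and 4.98 there in D and no peak in ID.

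At the start of Zkscan2, 101 bp from it, lay site 45 (chr7:123499793-123500907). LCL ID had a peak there in both replicates (5.95 and 7.32) and LCL D in replicate 2 (4.41). CTCFL had 1 in replicate 1 of D (4.53) and in replicate 2 of ID (3.83), CTCF 1 in replicate 2 of D (3.55), and CLC none. No match to the motif lay under the summit. The promoter of Zkscan2 (a window of 300 bases around the start in RefSeq, GRCm38) overlapped this site and that of Arhgap17 overlapped site 42. The promoter entries of 4 genes, Rbbp6, Slc5a11, Arhgap17 and Aqp8, held a motif match with at most 1 mismatch, as did 30.6% of 32851 promoters of that length.

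Site 18 (chr7:122667415-122668711), at −2355 bp from the start of Cacng3, was the only site with a peak in both replicates of all 8 groups. Its folds were 11.2 and 9.28 in CTCF ID, 11.53 and 9.2 in CTCFL ID, 6.59 and 6.77 in LCL ID and 7.13 and 9.23 in CLC ID. CTCF and CTCFL overlapped in strength there under IAA, while Cacng3 itself stayed between 0 and 9.43 normalized counts.

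The 2 proteins were unevenly spread along the locus. In the 345.7 kb of Prkcb, CTCF had 8 sites in D and 11 in ID, and CTCFL had 7 and 8. Sites shared by CTCF and CTCFL belong to the choice of the locus, so these counts are description alone. From Rbbp6 to the end of Tnrc6a CTCF had 7 and 6, and CTCFL 1 and 0, although site 33 there had a CTCFL peak in replicate 1 of D. In the 482.4 kb between Zkscan2 and Hs3st4 CTCF had 6 in D and 5 in ID and CTCFL none in either, although site 51 there had a CTCFL peak in replicate 1 of ID. LCL, with the zinc fingers of CTCF, had 1 site in D and 6 in ID from Rbbp6 to Tnrc6a. Between Zkscan2 and Hs3st4 it had 2 in D and 3 in ID. CLC, with the zinc fingers of CTCFL, had 0 in D and 0 in ID from Rbbp6 to Tnrc6a. Between Zkscan2 and Hs3st4 it had 1 in D and 0 in ID. Of these 4 proteins CLC had the fewest sites over the genome, 7599 sites in D and 17876 in ID, where CTCF had 37154 and 30317.

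Some sites also had peaks in other FLAG experiments of the series (the CLL and LLC chimeras, and mock or RNase treatment of CTCF ID and CTCFL ID cells). Sites 6, 38 and 40, which hold no motif match, had a peak in both replicates of LLC ID and of CTCFL ID mock cells, and 38 and 40 also in LLC D. RAD21 peaks were listed at each of these sites too. The IgG control samples of the series were not used, so whether such peaks are specific to the tagged protein was not tested. Of the 54 sites, 18 had a peak in both replicates of CTCF ID mock cells and 3 after RNase. For CTCFL ID these numbers were 4 and 1. Over the genome the CTCF replicates held 23919 and 25374 peak regions in mock and 24896 and 8584 after RNase, and those of CTCFL 8918 and 14347 in mock and 9204 and 2526 after RNase. Replicate 2 after RNase was thus the poorest in peaks for both proteins.

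RAD21 peaks were few and uneven between replicates. In the window CTCF D had 23 peak regions in replicate 1 and 4 in replicate 2, CTCFL D had 24 and 0, LCL D 5 and 15 and CLC D 1 and 14. Over the genome the same lists held 22765 and 3756, 20467 and 238, 5292 and 14913, and 1491 and 10771 regions. A peak in both replicates was present at 4 sites in CTCF D, 2 in LCL D, 1 in CTCF ID and none in the other 5 groups, and the absence of a peak therefore says little in these lists.

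The sites with RAD21 in both replicates of a group were 12, 18, 24, 44 and 46. Site 44 in Aqp8 had RAD21 folds of 5.43 and 4.04 in CTCF D and 7.09 and 3.92 in LCL D, with 5.82 in replicate 1 of CTCFL D. Site 12 in Prkcb was the 1 site that kept RAD21 in both replicates of CTCF ID (3.94 and 4.66), although with −log10 q of 1.78 and 1.67, so it is lost at a minimum of 5. Site 46, at −23871 bp from the start of Zkscan2, had RAD21 in CTCF D (4.35 and 3.86) and FLAG peaks of CTCF and LCL but none of CTCFL or CLC. Neither site 3 at Prkcb nor any other site of the CTCFL class had RAD21 in both replicates of a group, and 3 of these 7 had a RAD21 peak in at least 1 list.

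**Figure D4:**
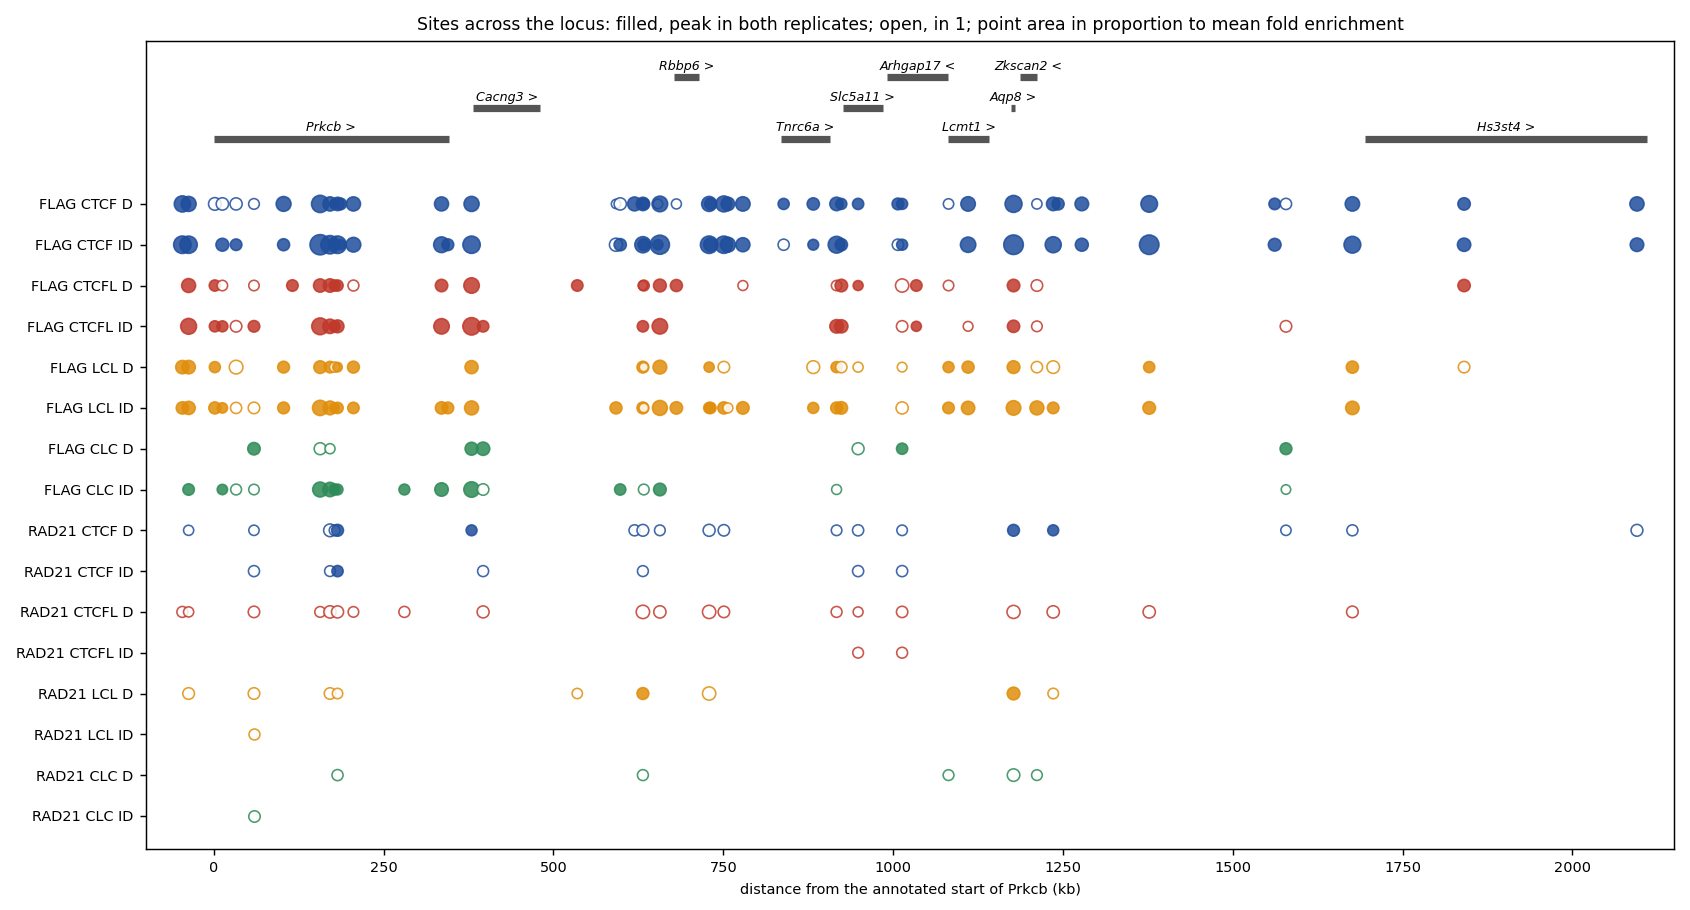
FLAG and RAD21 sites by group (y axis) against distance from the annotated start of Prkcb in kb (x axis), with the members drawn above and their direction of transcription marked by arrowheads. Filled points have a peak in both replicates and open points in 1, and point area follows the mean fold enrichment. The red CTCFL points are dense in Prkcb and absent as filled points between Zkscan2 and Hs3st4, where CTCF has 6 in D and 5 in ID. Sites shared by CTCF and CTCFL belong to the choice of the locus.

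Chromatin domains over the locus were listed for 12 Hi-C conditions by 2 callers, in bins of 40 kb, with 1 list per condition and caller and thus no replicate. In 10 of the 12 conditions HiCratio placed Prkcb and Cacng3 in 1 domain, and in all 12 the genes from Tnrc6a to Lcmt1 in the next, and Hs3st4 in another. The gap between the first 2 domains was at 122.96 to 123.00 Mb, inside Rbbp6, in all 12 conditions. The gap at the other side was at 123.48 to 123.52 Mb, at Zkscan2, in 9 conditions, so Aqp8 fell with Tnrc6a to Lcmt1. In CTCF I, CTCFL I and CTCFL ID it lay 1 bin earlier, at 123.44 to 123.48 Mb, which took in Aqp8 and part of Zkscan2. Prkcb and Zkscan2 were not in the same domain in any of the lists.

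Prkcb had a gap of its own in 2 conditions. In CTCFL U and CLC D a boundary at 122.44 to 122.48 Mb divided its gene body, and 5 sites of CTCF ID and 4 of CTCFL D lie in that bin. The gap was not listed in CTCFL D, I or ID or in any CTCF list. Since Hi-C of CTCFL U and D also entered the choice of the locus, their difference here is description alone. Upstream of Prkcb a boundary lay in the bin starting at 122.16 Mb in 9 conditions and 1 bin earlier in CTCF I, CTCF D and CLC D. The domain before it began at 121.64 to 121.72 Mb in the U and D lists and at 120.64 to 121.12 Mb in the I and ID lists.

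The Crane lists gave shorter domains with wider gaps, at 122.84 to 123.12 Mb over Rbbp6 and 123.44 to 123.72 Mb over Aqp8 and Zkscan2 in CTCFL U, D and ID. Of the 13 domain edges of CTCFL U in the window (5 by Crane and 8 by HiCratio), 11 were found within 40 kb in CTCFL D, and the other 2 were those of the gap in Prkcb.

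**Figure D5:**
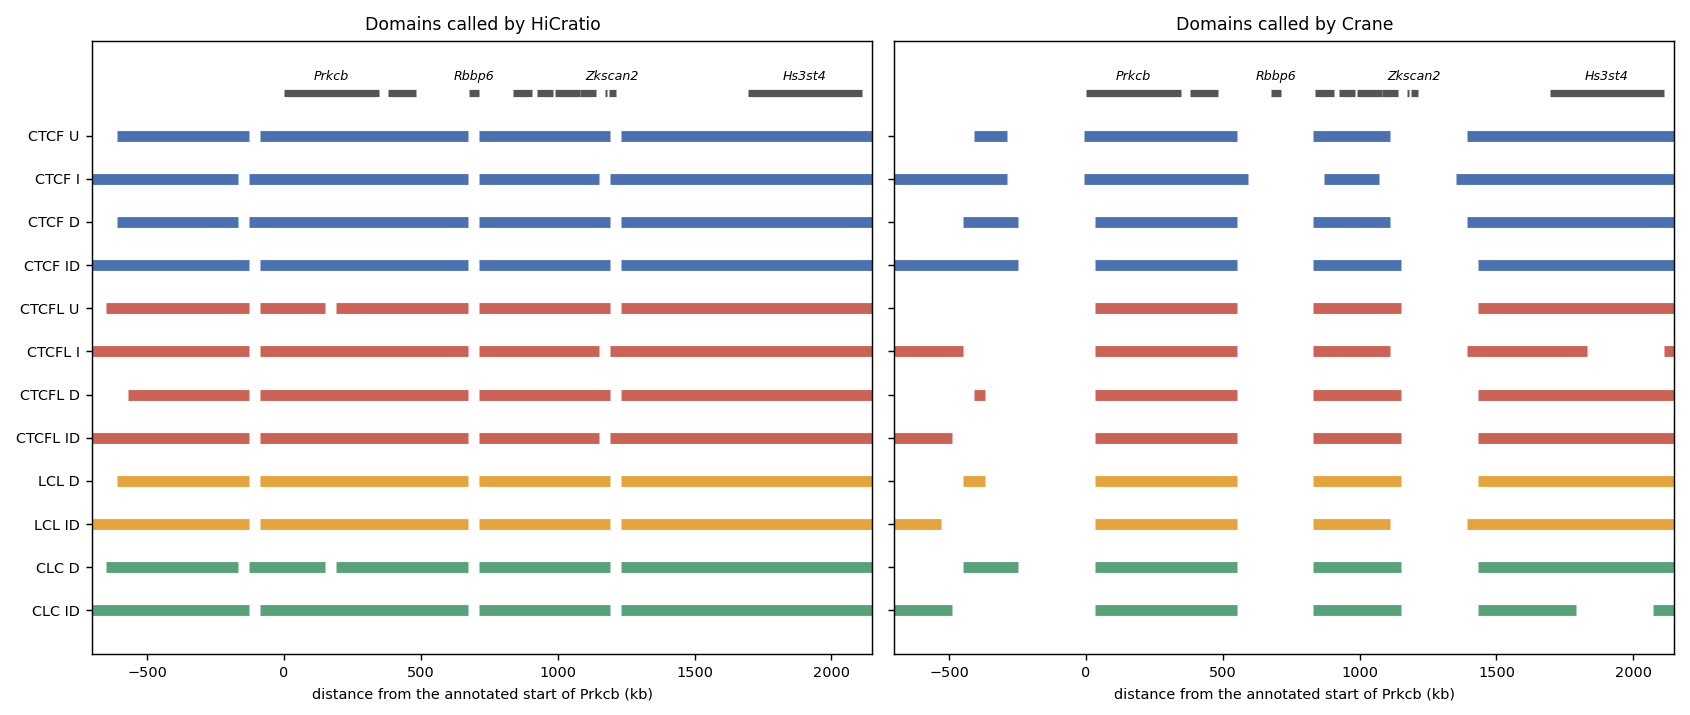
Domains (bars) called by HiCratio (left) and Crane (right) in 12 Hi-C conditions (y axis) against distance from the start of Prkcb in kb (x axis), with the 10 members drawn above. The HiCratio gap inside Rbbp6 is in the same bin in all 12 conditions, the gap at Zkscan2 moves by 1 bin in 3, and a gap within Prkcb is drawn for CTCFL U and CLC D.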

How the data were processed

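RNA-seq, ChIP-seq and Hi-C files were analysed as the authors deposited them, aligned to GRCm38/mm10. The RNA-seq signal values are gene counts from STAR alignments, which the authors scaled by a size factor for each library; the reads of 36 of 38 libraries could be recovered as whole numbers (all of the low values, within a tolerance of 0.05 reads), and those of CTCFL I replicate 2 and CTCFL ID replicate 2 could not. Log2(value + 1) was tested with limma 3.58.1 (R 4.3.3, moderated by an intensity trend), with U, I, D and ID of a line fitted together, on genes with a mean of at least 10, with Benjamini-Hochberg adjustment over all genes tested and a threshold of 0.05. Fold changes of low genes are understated by the pseudocount. The test was checked on simulated data.

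FLAG and RAD21 peaks were called by the authors for each replicate separately (MACS, q threshold 0.05) after Bowtie2 alignment and removal of duplicates. Some listed RAD21 peaks carry a q short of that threshold, such as a −log10 q of 1.16 at site 46 in CTCF D replicate 2. The deposited peak lists give the fold (ratio) over local background, the −log10 q and a score, which is not used here, and no reads, so that their depth is unknown. Peaks that touch (overlap of at least 1 bp) were merged, and a merged region counted as a site where both replicates had a peak. Sequences were read with pysam 0.24.0 from GRCm38. Domains were called by the authors at 40 kb bins, and whether replicates were pooled is not given in the sources used here.

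The members are always named, and genes of the flanking list and of the gene families are named where they passed an adjusted p of 0.05 with a log2 fold change above 1. The members and lists were chosen with earlier results of these data known. Alternatives were a pseudocount of 5, no filter, a minimum mean of 50, TMM rescaling, the 2 groups alone, a block on replicate number, recovered reads in edgeR 4.0.16 and DESeq2 1.42.0, a −log10 q of at least 5, other overlaps and bins, and leaving out each library.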

Additional observations from a re-analysis of the deposited data

Results flagged for a closer look

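The response to Dox under IAA differed between the CTCFL and CTCF lines for 4 of the 8 tested genes by the limma interaction (3 higher and 1 lower in the CTCFL line), where 6.88% of all genes were higher and 7.92% lower. Prkcb differed by 1.78 on the log2 scale, being higher in ID than in I in the CTCFL line (mean 48.8 to 102.8 normalized counts) and lower in the CTCF line (52 to 33.3). Aqp8 differed by 1.40 (177.5 to 469.8 against 126.8 to 128.3) and Lcmt1 by 0.40 (872.6 to 1285 against 960.8 to 1068). Tnrc6a differed by −0.45, falling in both lines (3741 to 2041 against 3510 to 2596). The last 3 did not pass under several alternatives, while Prkcb passed under all 18. Cell type markers also shifted differently between I and ID in the CTCFL and CTCF lines, and their part was not tested. No group held 4 or more libraries, so single outlying libraries were not tested for.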

How the results depend on the processing

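None of the 32 calls of members changed direction under any alternative. Of the 56 tested values that were not called, 20 changed sign under at least 1 alternative (none over 0.53 in size as reported) and 18 passed under at least 1. Of the 32 calls of members, 11 passed under every alternative and 21 under every one that left out no library. The number of members called changed by over 1.5 times as follows. Between CTCF U and I it was 4 with TMM rescaling, edgeR or DESeq2 in place of 2. Without the filter on low values it was 1 for LCL U and D (3 reported), 1 for CLC U and I (2 reported) and 1 for the interaction (4 reported). It was 1 for CLC U and I with a minimum mean of 50, and with the 2 groups alone it was 3 for CLC U and D (0 reported) and 0 for CLC I and ID (2 reported). The replicate block left 1 call in the interaction, removed the Tnrc6a call between CTCF U and D, and otherwise kept counts within 1.5 times. Same-numbered libraries deviated together with correlations between −0.56 and 0.32, so their numbers do not pair them. For CLC I and ID, where both were −0.38, crossed numbers also gave 2 calls.

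Leaving out 1 library, the number of calls ran from 5 to 6 for CTCFL I and ID, from 0 to 3 for CTCF U and I, from 0 to 4 for CTCF U and D, from 2 to 4 for CTCF I and ID, from 1 to 2 for LCL U and I, from 0 to 3 for LCL U and D, from 4 to 5 for LCL I and ID, from 0 to 3 for CLC U and I, from 1 to 5 for CLC I and ID and from 1 to 4 for the interaction; CLC U and D stayed at 0.

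Raising the −log10 q minimum of peaks to 5 left 11 of 18 sites in LCL D, 2 of 5 in CLC D and none of the RAD21 sites of CTCF D (4 reported), LCL D (2 reported) and CTCF ID (1 reported), that is 0, 0 and 0. With 1 replicate alone, sites ran from 19 to 35 in CTCFL D, 21 to 23 in CTCFL ID, 41 to 61 in CTCF D, 37 to 42 in CTCF ID, 23 to 33 in LCL D, 40 to 43 in LCL ID, 9 to 10 in CLC D and 15 to 19 in CLC ID, and RAD21 sites from 4 to 23 in CTCF D, 5 to 15 in LCL D and 1 to 11 in CTCF ID. In the same bin alone, 7 of the 13 domain edges of CTCFL U were found in CTCFL I, against 11 within 40 kb, and in CTCF I 2 of 13 against 9. The cause of these shifts was not tested. Prkcb in LCL and CLC and both low genes, Cacng3 and Hs3st4, are limited by few reads.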
